A study of Mus musculus with 12 samples.

Results

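Cathepsins are proteases that work mostly inside the lysosome, and cystatins are small proteins that block the papain-like ones among them. The genes described here are 7 cathepsins (Ctsb, Ctsd, Ctsh, Ctsk, Ctsl, Ctss and Ctsz) and 3 cystatins (Cst3, Cst6 and Cstb), chosen by gene name, with no threshold on a measured value. They are 10 of the 22180 mouse genes that had a probe set of their own on the array, and each was read from the probe set with the highest mean over the 12 arrays. Each array held RNA from the sternal cartilage of 1 mouse, with the xiphoid process left out. The 6 QT mice, which the labels call TIMPless, carried whole-body null alleles of all 4 tissue inhibitors of metalloproteinases: stop codons in Timp1, loss of the first exon and upstream sequence of Timp2, and deletions that take the translation start of Timp3 and of Timp4. The 6 WT mice carried none of these alleles. All mice were untreated, 4 wk old and of the C57BL/6J strain, and their sex is not given in the labels.

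Cathepsins K, S, L, B, Z and H are cysteine proteases with a papain fold, whereas cathepsin D is an aspartic protease. They are made as inactive proenzymes, reach the lysosome mostly by mannose 6-phosphate sorting, and can be secreted, as cathepsin K is by osteoclasts onto bone and calcified cartilage. Cystatin C (Cst3) and cystatin M/E (Cst6) are secreted inhibitors and cystatin B (Cstb) acts in the cytosol. TIMP proteins inhibit metalloproteinases, not cathepsins, so the comparison asks how a second protease and inhibitor system stood at the RNA level in cartilage that lacked the first.

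Values are log2 signals normalized by the robust multiarray average (RMA), so a difference of 1 is a 2-fold difference, and values of different genes cannot be set against each other. Changes are QT minus WT with the standard error of the limma fit. A gene was called where limma gave a Benjamini-Hochberg adjusted p under 0.05 over all 41345 probe sets and the fold was at least 1.5. The 4 targeted genes were called lower in QT, with changes of -0.87 for Timp1, -1.62 for Timp2, -1.27 for Timp3 and -1.66 for Timp4, although the highest QT value of Timp1 (9.67) exceeded its lowest WT value (9.54). Without WT replicates 5 and 6, which stood apart as described next, Timp1 changed by -0.74 and was not called (limma adjusted p = 0.114). Array medians lay between 6.15 and 6.2, and a gene whose group mean is below the lowest of them, called dim here, has no level shown to be above background in that group. WT replicates 5 and 6 stood apart from the other 10 mice in Xist, with a lowest WT value of 5.17 against 11.91 or more in all QT mice, and in the Y-linked gene Eif2s3y, with a highest WT value of 9.2 against 3.81 or less in QT. Sex and genotype are therefore partly mixed, and values without those 2 mice are given where they bear on a result. Mice are labelled biological replicates, and nothing in the labels ties a QT mouse to a WT mouse.

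None of the 10 genes was called by limma, against 2.3% of all genes with a probe set of their own and 1.61% of all probe sets. One gene, Ctsh, passed the adjusted p alone, against 4.93% of all genes, and was lower in QT, as were 3.24% of all genes at that threshold. At an unadjusted p under 0.05 there were 4 of the 10 (Ctsk, Ctsl and Ctss with higher means in QT, and Ctsh lower), against 20.5% of all genes. The 3 higher ones stand against 8.72% of all genes that were higher in QT at that p. Among genes above the array medians, where 9 of the 10 lie, 3.55% were called and 7.62% had an adjusted p under 0.05. The mean was higher in QT for 6 genes and lower for 4, with a median change of 0.065, against -0.0017 over all genes. The median size of the change, sign set aside, was 0.144, against 0.11 over all genes and 0.123 over those above the array medians. For 7 of the 10 the whole 95% interval of the change lay within 1.5-fold in both directions, as it did for 18611 of the 22180 genes. Cst6, 1 of these 7, was too dim for its interval to bound a change in RNA. The exceptions were Ctsh, Ctsk and Ctss.

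**Figure D1:**
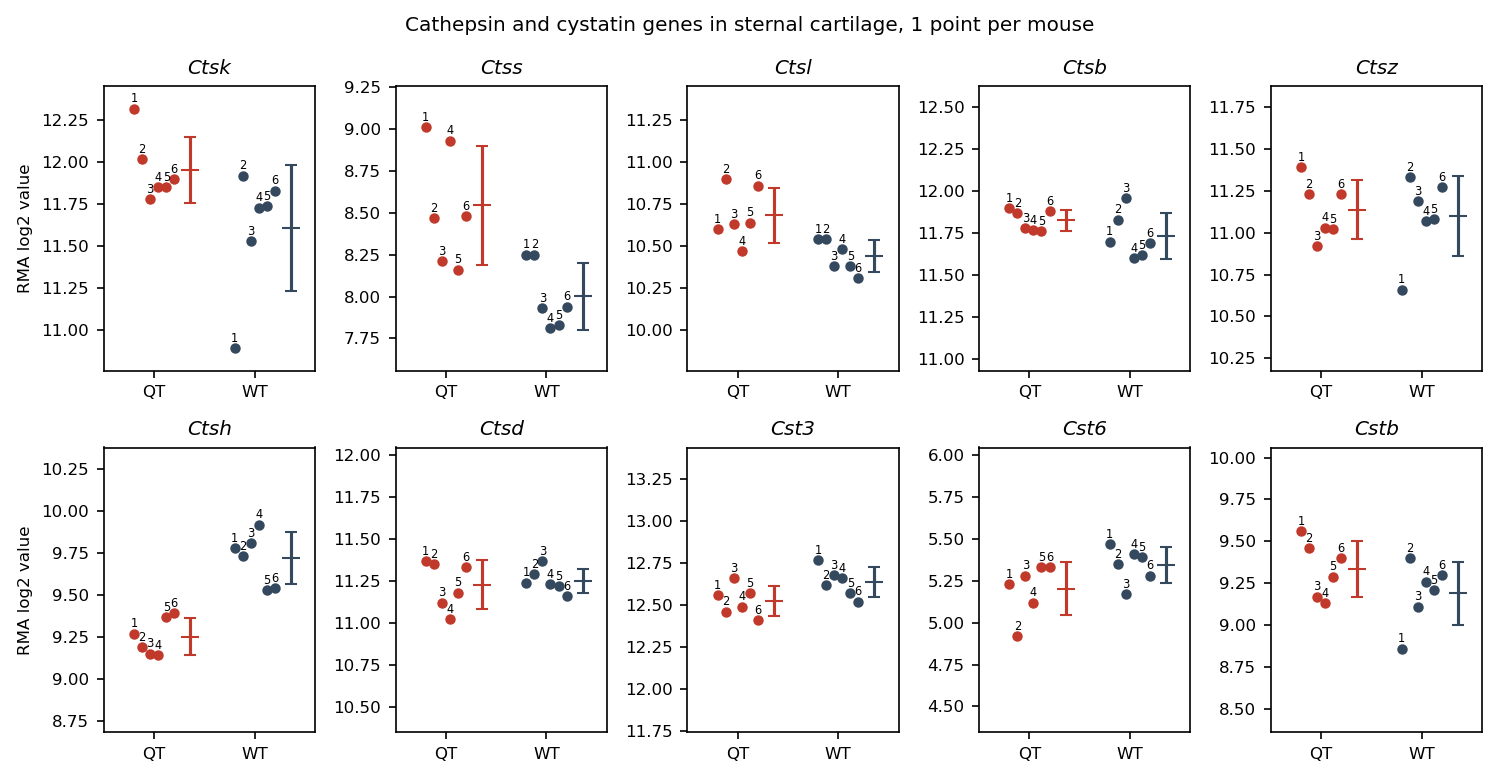
RMA log2 value of each of the 10 genes in each mouse (points, numbered by replicate), QT left and WT right in each panel, with the group mean and SD (bars, n = 6). The vertical axes span the same number of log2 units but start at different levels. Ctsh is the gene whose groups do not overlap, and WT replicate 1 lies lowest for Ctsk, Ctsz and Cstb.

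Ctsk encodes cathepsin K, the collagenase of osteoclasts. It had 11.78 as its lowest value, 11.88 as its median and 12.32 as its highest in QT cartilage, against 10.89, 11.74 and 11.92 in WT cartilage. The groups overlapped, with 2 QT mice above the highest WT mouse and 1 WT mouse, replicate 1, far below every other animal. The mean was 11.95 ± 0.20 in QT and 11.61 ± 0.37 in WT (SD, n = 6 each), a difference of 0.35 ± 0.16 (SE, 95% interval 0.0031 to 0.69) that did not pass limma's adjusted test (adjusted p = 0.288). The difference was 0.20 without WT replicate 1, and 0.20 to 0.41 over the fits that left out a single mouse. It was 0.13 without both mice numbered 1 (limma adjusted p = 0.504). That pair was chosen after seeing the data. It holds the highest QT and the lowest WT value of Ctsk, so leaving it out had to shrink the difference.

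The same mice stood at the ends of an osteoclast list that does not hold Ctsk. The mean of its 14 genes was 9.96 in QT replicate 1 and 9.30 to 9.52 in the other QT mice, against 8.47 in WT replicate 1 and 9.28 to 9.66 in the other WT mice. By group the list mean was 9.53 in QT and 9.29 in WT, and 11 of the 14 genes had a higher mean in QT, with a median change of 0.15. An unadjusted p under 0.05 in limma was found for 2, against 20.5% of all genes. Acp5, tartrate-resistant acid phosphatase, was at 12.78 in QT replicate 1 and 12 in WT replicate 1, and the group means were both 12.53. Mmp9, gelatinase B, averaged 12.40 in QT and 12.42 in WT, and these were among the 3 genes of the list without a higher mean in QT. One of the 14 was called, against 2.3% of all genes. It was Calcr, the calcitonin receptor, at 7.81 ± 0.42 in QT and 6.62 ± 0.43 in WT with no overlap (limma adjusted p = 0.0112). In bulk tissue fewer cells of a type and less RNA per cell cannot be told apart, and the part of osteoclast content in the Ctsk values was not tested.

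Ctsz and Cstb had their lowest WT value in the same animal. Ctsz encodes cathepsin Z, also called cathepsin X, a carboxypeptidase. Its values were 10.92, 11.13 and 11.39 (lowest, median and highest) in QT, against 10.66, 11.14 and 11.33 in WT. The groups overlapped over most of their range, and the difference was 0.04 with a 95% interval of -0.21 to 0.29 (limma adjusted p = 0.906). Its sign turned without QT replicate 1 (-0.014) and without WT replicate 1 (-0.051), so no direction can be given.

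**Figure D2:**
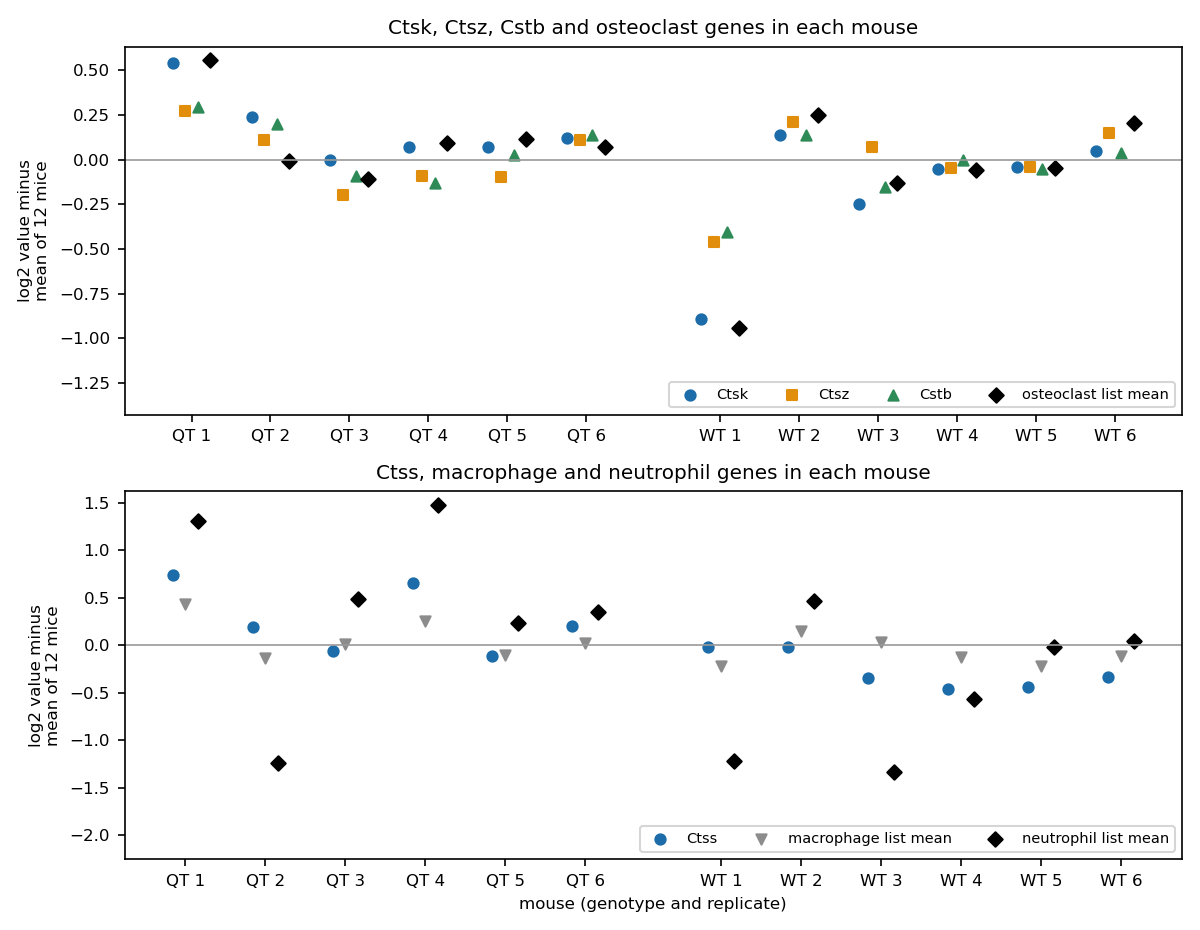
Log2 value minus the mean of the 12 mice, for each mouse, QT left and WT right. Upper panel: Ctsk, Ctsz, Cstb and the mean of 14 osteoclast genes, where QT replicate 1 and WT replicate 1 hold the highest and lowest osteoclast mean (9.96 and 8.47). Lower panel: Ctss with the means of 14 macrophage and 9 neutrophil genes, where QT replicates 1 and 4 are high in all of them.

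Ctss encodes cathepsin S, an elastase of macrophages and other antigen-presenting cells that trims the invariant chain of MHC class II. It showed the largest difference of the 10. Its lowest, median and highest values were 8.16, 8.48 and 9.01 in QT cartilage, against 7.81, 7.94 and 8.25 in WT cartilage. In QT, 4 mice lay above every WT mouse, and replicates 3 and 5 lay within the WT range. The mean was 8.54 ± 0.36 in QT and 8.0 ± 0.20 in WT (SD, n = 6 each), 0.54 ± 0.15 higher (SE, 95% interval 0.21 to 0.87), or 1.46-fold. This missed both thresholds (limma adjusted p = 0.0775), and the adjusted p was 0.043 when dim probe sets were left out of the limma fit. Without WT replicates 5 and 6 the difference was 0.48, with a limma adjusted p of 0.214.

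QT replicates 1 and 4, with Ctss at 9.01 and 8.93, were also the QT mice with the most myeloid signal. The mean of 14 macrophage genes was 8.65 and 8.48 in these 2 mice and 8.09 to 8.24 in the other QT mice, against 7.99 to 8.37 in WT. The mean of 9 neutrophil genes was 11.14 and 11.32 in these 2 and 8.60 to 10.33 in the other QT mice, against 8.50 to 10.30 in WT. Not all other mice followed this order. QT replicate 2, with Ctss at 8.47 and so above every WT mouse, had the lowest macrophage and neutrophil means of the QT mice (8.09 and 8.60). WT replicates 1 and 2 shared the highest WT value of Ctss (8.25). Replicate 1 had the lowest WT macrophage mean (7.99). Replicate 2 had the highest WT macrophage and neutrophil means (8.37 and 10.30). By group, all 9 neutrophil genes and 9 of the 14 macrophage genes had a higher mean in QT, and none of them was called by limma. The median change was 0.855 for the neutrophil list and only 0.074 for the macrophage list. In each list 4 genes had an unadjusted p under 0.05 in limma, against 20.5% of all genes. The part of these cells in the Ctss values was not tested. Of the 6 MHC class II pathway genes measured, none was called and none had an unadjusted p under 0.05 in limma; H2-Ab1 averaged 9.23 in QT and 9.02 in WT, and H2-Aa 8.33 in QT and 8.14 in WT.

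The promoter of Ctss is shown because the gene had the largest difference of the 10, though it was not called, and its window holds letter patterns known from immune promoters. It spans 250 bases before to 50 after the transcription start on the + strand, chr3:95526536-95526835 of GRCm38.p6 (RefSeq). Capitals mark GAAA followed after any 2 bases by a second GAAA, a pattern bound by interferon regulatory factors (IRF), and GAGGAA, a core of the sites of the myeloid factor PU.1, which also appears as its reverse complement at the start site.
Ctss: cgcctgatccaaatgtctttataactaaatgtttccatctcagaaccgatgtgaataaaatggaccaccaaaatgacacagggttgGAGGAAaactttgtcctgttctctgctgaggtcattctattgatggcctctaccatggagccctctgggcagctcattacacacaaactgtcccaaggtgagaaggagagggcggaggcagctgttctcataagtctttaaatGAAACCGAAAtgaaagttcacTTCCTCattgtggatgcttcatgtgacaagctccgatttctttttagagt
The first pattern begins 21 bases before the start, and the GAGGAA matches begin 164 bases before it and at its first base. Both strands were searched. Of 32851 mouse promoter windows of this length, 3.44% hold the IRF pattern and 28.3% hold GAGGAA, which was also found in the windows of Ctsk and Cst3. A match describes the letters only. In the reference annotation the next protein-coding gene after Ctsk is Ctss.

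Ctsl encodes cathepsin L, a broad endopeptidase of lysosomes. Its values were 10.47, 10.64 and 10.90 (lowest, median and highest) in QT, against 10.31, 10.43 and 10.54 in WT. The 5 highest QT mice exceeded every WT mouse, and QT replicate 4 lay within the WT range. The mean was 10.68 ± 0.16 in QT and 10.44 ± 0.10 in WT (SD, n = 6 each). The difference of 0.25 ± 0.083 (SE, 95% interval 0.066 to 0.42) did not pass limma's adjusted test (adjusted p = 0.14). It was 0.20 without WT replicates 5 and 6 and 0.28 without both mice numbered 1.

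Ctsb encodes cathepsin B, which cuts both as an endopeptidase and from the carboxyl end. It had 11.76, 11.83 and 11.90 as lowest, median and highest values in QT, against 11.60, 11.70 and 11.96 in WT. The QT values lay wholly inside the WT range. The difference was 0.09, with a 95% interval of -0.062 to 0.25 (limma adjusted p = 0.542).

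Ctsh was the member that passed the adjusted p. It encodes cathepsin H, an aminopeptidase of lysosomes that also matures surfactant protein in lung. Its lowest, median and highest values were 9.14, 9.23 and 9.39 in QT cartilage, against 9.53, 9.76 and 9.92 in WT cartilage. All 6 QT mice lay below all 6 WT mice, with a gap of 0.14 between the groups, and 4.92% of all genes did not overlap between the groups either. The mean was 9.25 ± 0.11 in QT and 9.72 ± 0.16 in WT (SD, n = 6 each). Ctsh thus fell by 0.47 on the log2 scale (SE 0.083, 95% interval -0.65 to -0.29), with a limma adjusted p of 0.00858. WT was 1.38-fold above QT, short of the 1.5-fold threshold.

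The lowest WT values of Ctsh, 9.53 and 9.54, were those of replicates 5 and 6, and without these animals the change was -0.56 (limma adjusted p = 0.00516). Leaving out any single mouse gave changes of -0.50 to -0.43 with limma adjusted p-values of 0.00833 to 0.025. Without both mice numbered 1 the change was -0.46 (limma adjusted p = 0.0394). By group, markers of tissue next to the cartilage were also lower in QT. The mean of 6 adipocyte genes was 7.58 to 8.29 in QT and 8.495 to 9.69 in WT, and that of 6 skeletal muscle genes was 8.01 to 9.09 in QT and 9.0 to 10.54 in WT. Within each group, list means are given here for the mice nearest the other group in Ctsh. WT replicates 5 and 6, lowest in Ctsh, had the highest WT muscle means (10.54 and 10.41). QT replicates 5 and 6, highest of the QT mice in Ctsh (9.37 and 9.39), had the lowest muscle means (8.01 and 8.30). The adipocyte means of WT replicates 5 and 6 were 9.42 and 8.495, the latter the lowest in WT. Those of QT replicates 5 and 6 were 7.63 and 8.14. WT replicates 5 and 6 are also the mice that stood apart in Xist and Eif2s3y. The part of such tissue in the Ctsh values was not tested.

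Ctsd encodes cathepsin D, the main aspartic protease of lysosomes. It had 11.02, 11.26 and 11.37 as lowest, median and highest values in QT, against 11.16, 11.24 and 11.37 in WT. The highest mouse of each group was at the same value, and QT replicates 3 and 4 lay below all WT mice. The difference was -0.02, with a 95% interval of -0.18 to 0.14 (limma adjusted p = 0.906).

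The promoter window of Ctsd, on the - strand at chr7:142387778-142388077 of GRCm38.p6 (RefSeq), is shown beside that of Ctss as the lysosomal counterpart. Capitals mark CACGTG, the E-box letters, and TCACGTGA, the form of it bound by TFEB and TFE3, the regulators of lysosome genes; the second CACGTG lies inside TCACGTGA.
Ctsd: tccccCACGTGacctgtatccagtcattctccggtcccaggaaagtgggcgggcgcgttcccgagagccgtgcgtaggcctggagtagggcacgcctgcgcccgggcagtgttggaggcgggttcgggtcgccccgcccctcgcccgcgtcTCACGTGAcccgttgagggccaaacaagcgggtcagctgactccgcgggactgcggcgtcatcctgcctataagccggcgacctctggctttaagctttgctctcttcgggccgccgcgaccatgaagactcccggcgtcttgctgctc
The CACGTG matches begin 245 and 98 bases before the start, and TCACGTGA begins 99 bases before it. CACGTG is in 7.15% of the 32851 windows and TCACGTGA in 0.974%, on either strand. Of the 6 members with a window in the reference table, Ctsl also holds CACGTG, 236 bases before its start. Ctsb, Ctsh, Cst6 and Cstb were not matched.

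Among the inhibitors, Cst3 encodes cystatin C, the main secreted inhibitor of cysteine cathepsins. Its values were 12.41, 12.53 and 12.66 (lowest, median and highest) in QT, against 12.52, 12.64 and 12.77 in WT. The groups overlapped, and the QT mean was 0.11 below the WT mean (12.53 ± 0.090 in QT and 12.64 ± 0.088 in WT, SD, n = 6 each). The change of -0.11 had a 95% interval of -0.25 to 0.029 (limma adjusted p = 0.405). A dimmer second probe set of Cst3 gave -0.18 (limma adjusted p = 0.314).

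Cstb encodes cystatin B, or stefin B, a cytosolic inhibitor. It had 9.13, 9.35 and 9.56 as lowest, median and highest values in QT, against 8.86, 9.24 and 9.40 in WT. The groups overlapped, and the lowest WT value was again that of replicate 1. The difference was 0.15, with a 95% interval of -0.076 to 0.37 (limma adjusted p = 0.499). It was 0.034 without both mice numbered 1, which hold the highest QT and the lowest WT value of Cstb.

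Cst6 encodes cystatin M/E, an inhibitor of legumain and of cathepsins that is best known from skin. Its values of 4.92 to 5.33 in QT and 5.17 to 5.47 in WT were below the median of every array. The difference was -0.14, with a 95% interval of -0.32 to 0.037 (limma adjusted p = 0.402). With both groups that dim, no level above background is shown in either.

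**Figure D3:**
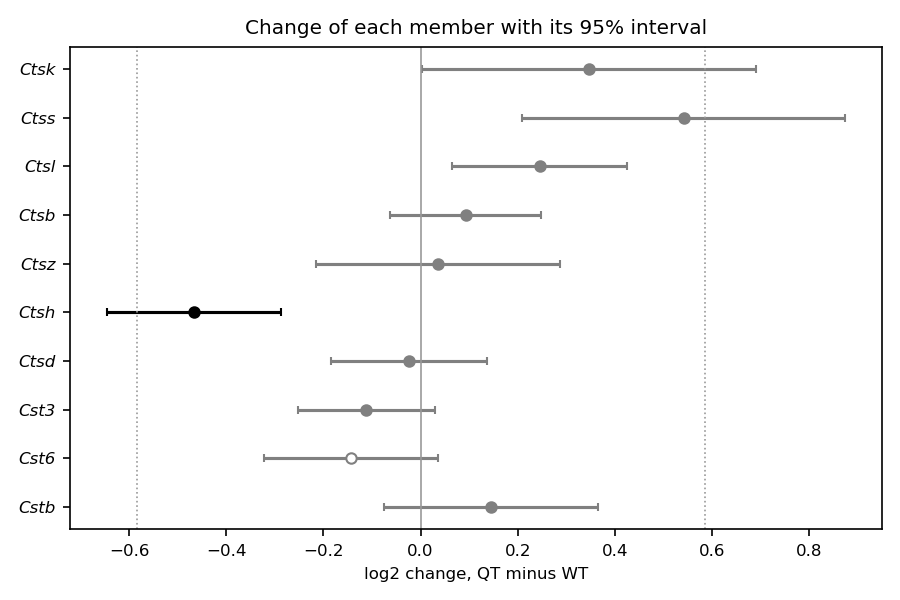
Log2 change (QT minus WT) of each of the 10 genes with its 95% interval from limma. Black marks an adjusted p under 0.05 (Ctsh), an open circle a gene dim in both groups (Cst6), and dotted lines a 1.5-fold change. The intervals of Ctsh, Ctsk and Ctss cross a dotted line.

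By kind, 5 of the 7 cathepsins had a higher mean in QT and 2 a lower one, with a median change of 0.093, and 1 of the 3 cystatins had a higher mean, with a median of -0.11. Among the QT mice, replicate 1 had the highest value for 6 of the 10 genes (Ctsb, Ctsk, Ctss, Ctsz, Ctsd and Cstb, level with no other), and replicate 4 the lowest for 4 (Ctsh, Ctsl, Ctsd and Cstb). Among the WT mice, replicate 1 was lowest for 3 (Ctsk, Ctsz and Cstb) and highest for 4 (Ctsl, Ctss, Cst3 and Cst6, level with replicate 2 for Ctsl and Ctss).

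Beyond the 10 genes, 15 other cathepsins were measured, of which 8 were dim in both groups. Of the 15, 2 were called, both higher in QT, against 2.3% of all genes, and the median change was -0.012. At an unadjusted p under 0.05 in limma there were 5, against 20.5% of all genes. Of these, Ctsf (-0.35), Ctso (-0.25) and Ctsq (-0.33, dim in both groups) were lower in QT. Ctsc encodes cathepsin C, or dipeptidyl peptidase 1, which activates the granule proteases of neutrophils and lymphocytes. Its lowest, median and highest values were 9.34, 9.90 and 10.21 in QT, against 8.60, 9.12 and 9.42 in WT, with an overlap at the edge. It rose by 0.77 ± 0.16 (SE), or 1.71-fold (limma adjusted p = 0.0176). Without WT replicates 5 and 6 the change was 0.73 (limma adjusted p = 0.073), and without both mice numbered 1 it was 0.77 (limma adjusted p = 0.0622), so the call was lost in both fits.

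Ctsw encodes cathepsin W, or lymphopain, of natural killer and cytotoxic T cells. Its values were 7.99, 8.20 and 8.92 (lowest, median and highest) in QT, against 6.49, 7.42 and 7.77 in WT, with no overlap. It was 1.98-fold higher in QT (limma adjusted p = 0.0239). The change was 0.98 in the full fit. The call was lost without QT replicate 6, WT replicate 3 or WT replicate 4, with changes of 0.96, 0.99 and 0.96 (limma adjusted p = 0.0534, 0.0508 and 0.053), and without both mice numbered 1, with a change of 0.80 (limma adjusted p = 0.0561). The mean of 4 lymphocyte genes, none of them a marker of natural killer cells, was 5.84 to 7.42 in QT and 6.06 to 6.87 in WT. The 4 differed in direction, with changes of 0.36 for Cd3e, 0.0067 for Cd8a, -0.69 for Cd79a and -0.35 for Ms4a1. Cd8a was dim in both groups, Cd3e in WT and Ms4a1 in QT. The part of lymphocytes in the Ctsw values was not tested.

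Of the wider cystatin superfamily, 18 of 20 listed genes were measured and 14 were dim in both groups. Again 2 were called, both higher in QT, against 2.3% of all genes, and the median change was 0.033. At an unadjusted p under 0.05 in limma there were 5, against 20.5% of all genes. The 2 called were the kininogens, cystatin-domain plasma proteins made chiefly in liver that inhibit cysteine proteases and release kinins. Kng2 had 6.98, 7.77 and 7.90 as lowest, median and highest values in QT, against 5.78, 6.31 and 6.86 in WT. The groups did not overlap, and Kng2 rose by 1.24 ± 0.21 (SE), or 2.36-fold in signal (limma adjusted p = 0.00743), with the call kept without any single mouse, without WT replicates 5 and 6 (limma adjusted p = 0.0244) and without both mice numbered 1 (limma adjusted p = 0.0415). Its WT mean (6.315) was just above the array medians (6.15 to 6.2), and WT replicates 1 and 6 (5.99 and 5.78) were below them. The 2.36 is therefore not an exact fold in RNA. Kng1 averaged 5.52 in QT and 4.65 in WT, below every array median in both groups, and its call (limma adjusted p = 0.0472) held in 1 of the 12 fits that left out a mouse. The 2 genes are close paralogs, and probes could share their signal.

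Of the stefins, cytosolic inhibitors of myeloid cells, Stfa2l1 and Stfa1 had wide differences that did not pass the test in the full fit. These are named here for their values. The related genes did not share them, and all were dim in both groups. Stfa2 changed by 0.72 and Stfa3 by 0.16 (limma adjusted p = 0.182 and 0.794). Csta1 and Csta2 were lower in QT, by -0.185 and -0.465 (limma adjusted p = 0.408 and 0.344). Stfa2l1 ranged from 5.41 to 9.86 in QT (median 7.44) and from 4.72 to 6.24 in WT (median 5.13), a difference in signal of 2.22 ± 0.61 (SE, limma adjusted p = 0.0679). It passed with dim probe sets left out (limma adjusted p = 0.0386), with Storey q-values (0.0472) and without QT replicate 2 (limma adjusted p = 0.0218), and over all alternatives the limma adjusted p reached 0.201. Stfa1 ranged from 5.35 to 9.47 in QT and from 5.35 to 5.95 in WT, a difference of 1.49 ± 0.50 (SE, limma adjusted p = 0.14). Both were dim in WT, so these differences are not exact folds in RNA, and the QT mice were spread widely. Stfa2l1 was highest in QT replicates 4 and 1 (9.86 and 8.61) and lowest in QT replicate 2 (5.41), and the neutrophil mean was likewise highest in QT replicates 4 and 1 and lowest in QT replicate 2. The part of neutrophils in these values was not tested, and the paralogs may share probes.

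**Figure D4:**
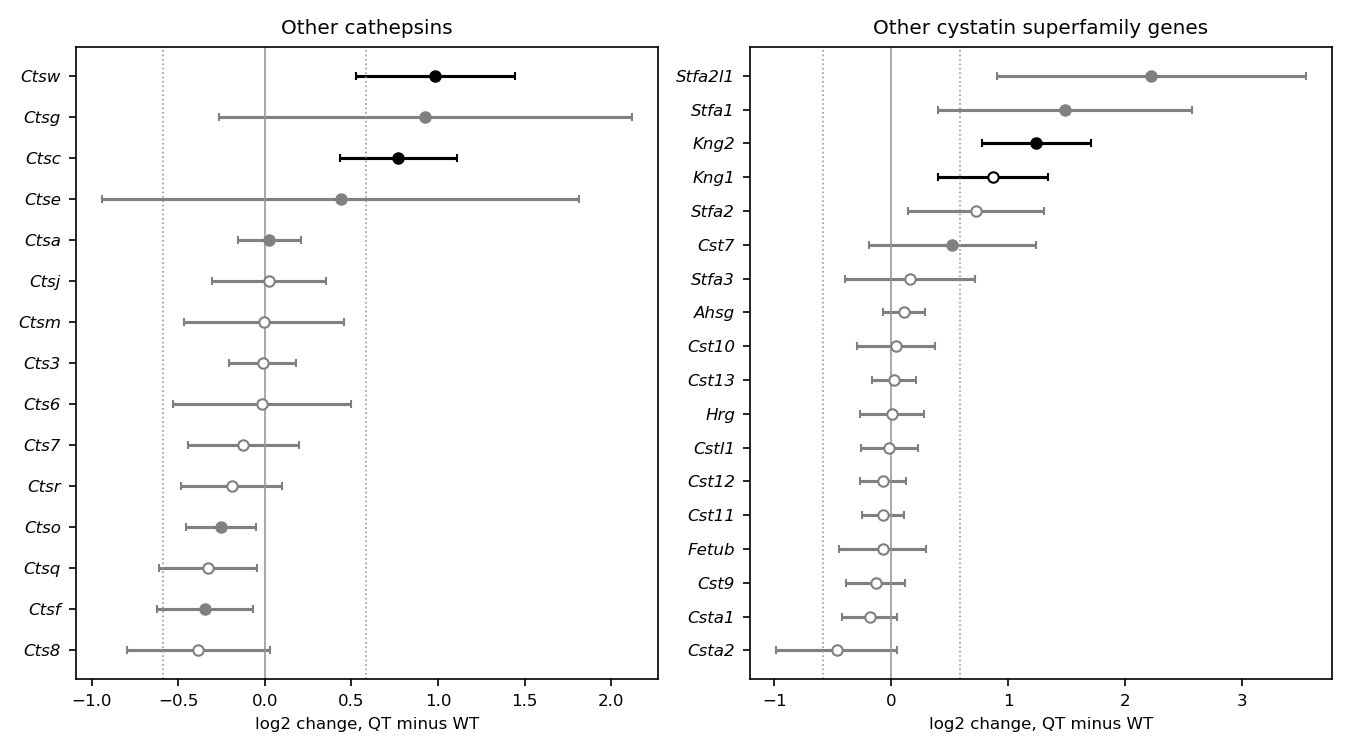
Log2 change (QT minus WT) with its 95% interval from limma for 15 other cathepsins (left) and 18 other cystatin superfamily genes (right). Black marks an adjusted p under 0.05 (Ctsw, Ctsc, Kng2 and Kng1, all higher in QT), open circles genes with means below the lowest array median in both groups, and dotted lines a 1.5-fold change.

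A further list held genes that carry cathepsins to the lysosome or process them. None of the 11 measured was called by limma, and the median change was -0.065. At an unadjusted p under 0.05 in limma there were 2, against 20.5% of all genes. Psap, prosaposin, averaged 12.04 in QT and 12.07 in WT, and Lrp1, an endocytic receptor, 10.98 in QT and 11.15 in WT. Lgmn, the legumain that cuts cathepsins to their 2-chain forms and is itself blocked by cystatins C and M/E, averaged 10.31 ± 0.13 in QT and 10.02 ± 0.12 in WT (SD, n = 6 each). It was 0.29 above WT in QT, with a limma adjusted p of 0.0647. Sort1, the other gene at that unadjusted p, was lower in QT, with a change of -0.315 (limma adjusted p = 0.15). Of 34 other lysosome genes none was called, and the median change was -0.005. In limma 10 had an unadjusted p under 0.05, against 20.5% of all genes. An adjusted p under 0.05 was found for 1, against 4.93% of all genes. That gene was Gaa, acid alpha-glucosidase, at 9.39 ± 0.15 in QT and 9.77 ± 0.082 in WT with no overlap (limma adjusted p = 0.0177). Without WT replicates 5 and 6 its change was -0.39, against -0.38 in all mice, and the limma adjusted p was 0.0566. Lgmn, Sort1 and Gaa are named for their values. Lamp1, a lysosomal membrane protein, averaged 11.09 in QT and 11.20 in WT, and Npc2, a cholesterol carrier, 11.00 in QT and 11.06 in WT. The mean of the 34 genes was 9.13 to 9.32 in QT mice and 9.03 to 9.32 in WT mice.

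The cartilage genes were high in both groups, with Col2a1, type II collagen, at 12.83 in QT and 12.85 in WT and Acan, aggrecan, at 12.57 in QT and 12.61 in WT. None of the 10 chondrocyte genes was called, but 8 had a lower mean in QT, with a median change of -0.12. At an unadjusted p under 0.05 in limma, against 20.5% of all genes, there were 3. These were Comp, cartilage oligomeric matrix protein, at 11.995 ± 0.10 in QT and 12.51 ± 0.092 in WT with no overlap (limma adjusted p = 0.00138), Matn1, matrilin 1, with a change of -0.97 (limma adjusted p = 0.182), and Col10a1, type X collagen, with a change of -0.26 (limma adjusted p = 0.0978). The part of chondrocyte content in the cathepsin and cystatin values was not tested. Of the lists for other tissues, all 6 adipocyte genes (Lep, Plin1, Retn, Cidec, Adipoq and Fabp4) and 4 of 6 skeletal muscle genes (Actn3, Ckm, Tnnt3 and Acta1) were called lower in QT. In either direction, 2.3% of all genes and 3.55% of those above the array medians were called. Without WT replicates 5 and 6 there were 4 adipocyte calls and 0 muscle calls. Of 11 keratinocyte genes, Slurp1, Sbsn and Dmkn were called lower and Tgm1 higher, against 2.3% of all genes called. Of the 11, 5 were dim in both groups, and the median change was 0.032. These lists were chosen with earlier results of these data known, which may have set part of the counts of calls. The call of Tgm1 was lost without WT replicates 5 and 6 (limma adjusted p = 0.0707) and without both mice numbered 1 (limma adjusted p = 0.0692). None of the 7 tendon and fibroblast genes (brightest Dcn and Col1a1) or the 4 endothelial genes (brightest Cdh5 and Pecam1) was called or had an unadjusted p under 0.05 in limma. The brightest macrophage genes were Lyz2, at 11.29 in QT and 10.88 in WT, and Cd68, at 10.52 in QT and 10.45 in WT. Ngp and Elane were the brightest neutrophil genes, and Cd79a and Ms4a1 the brightest lymphocyte genes, with no call in any of these lists.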

How the data were processed

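Sternal cartilage RNA of 6 QT and 6 WT mice was hybridised to Affymetrix Mouse Gene ST 2.0 arrays, 1 per mouse. The deposited log2 values were made by the authors from the scanner files with RMA (background correction, quantile normalization, probe summary) in Partek 6.6, per the submitters' processing notes. The build and annotation release behind the probe sets, not given in the sources used here, are unknown. RMA leaves no count or depth, so precision rests on the number of arrays. No 2 arrays were alike (root mean square difference 0.29 to 0.58). Gene names came from the platform annotation, and 23521 probe sets with 1 gene were used.

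limma 3.58.1 (R 4.3.3) was fitted to all 41345 probe sets with genotype as the only term (residual df 10, prior df 2.93), after a test on simulated data. The named genes were all 10 members and, of each other list, the called genes (up to 6) or the 2 brightest where none was called. Acp5, Mmp9, Comp, Matn1, Col10a1, Stfa1, Stfa2, Stfa2l1, Stfa3, Csta1, Csta2, Lgmn, Sort1, Gaa, Ctsf, Ctso, Ctsq, Cd3e and Cd8a fall outside that rule and were named after their values were seen. No member was called, so no most-alike genes were named. Members and lists were chosen with earlier results of these data known. Alternatives covered dim probe sets, trended and robust variance, renormalization, Storey q-values, array weights, probe-set means, a replicate block and left-out mice. Columns of no sample numbered 0. Promoter windows came from RefSeq (GRCm38.p6); 6 of 10 members matched.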

Additional observations from a re-analysis of the deposited data

Results flagged for a closer look

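In 11 of 148 groups of 6 mice examined, 1 mouse lay farther from the nearest other than Dixon's 95% limit allows for the group's range, and chance flags about 1 in 20 groups. The 11 cannot be set against that share, because some genes were named after their values were seen and list means hold some of the flagged genes. None of the 10 cathepsin and cystatin genes was among the 11, with Ctsk (10.89) and Ctsz (10.66) in WT replicate 1 just under the limit. In QT replicate 1, the osteoclast mean was 9.96 (others 9.30 to 9.52), the lymphocyte mean 7.42 (others 5.84 to 6.37), Psap 12.26 (others 11.97 to 12.02), Cd68 10.99 (others 10.29 to 10.52) and Ms4a1 7.81 (others 5.59 to 6.04). In WT replicate 1, the osteoclast mean was 8.47 (others 9.28 to 9.66), Acp5 12 (others 12.53 to 12.78), Mmp9 11.47 (others 12.35 to 12.86) and Col1a1 12.37 (others 12.82 to 13.02). Ctsf, a lysosomal cysteine cathepsin, was 9.31 in WT replicate 4 (others 8.59 to 8.86). Retn, an adipocyte gene, was 9.91 in QT replicate 3 (others 8.79 to 9.17).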

How the results depend on the processing

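None of the 10 genes was called under any alternative that kept the fold threshold, and 1 (Ctsh) without it. The number with an adjusted p under 0.05 was 2 with dim probe sets left out (Ctss joined, and Cst6 was not tested) and 1 to 1 without each mouse in turn. Calls among all probe sets numbered 665 in the full fit, 515 (without WT replicate 3) to 664 (without QT replicate 3) with single mice left out, 491 without both mice numbered 1, 750 with Storey q-values and 1449 without the fold threshold. The same-numbered mice showed no pairing: their deviations correlated at -0.21 to -0.0084, with 0 of 6 over 0.1. With the replicate block the calls among all probe sets were 423 and the members with an adjusted p under 0.05 were 0; limma's adjusted p was then 0.0879 for Ctsh, 0.0585 for Ctsc, 0.131 for Kng1, 0.077 for Gaa, 0.0667 for Tgm1 and 0.0745 for Calcr. Signs turned only in genes with changes near 0: Ctsz was -0.0128 after a second quantile normalization, -0.0191 with array weights, -0.102 without QT replicate 1 and WT replicate 1 together (an alternative chosen after seeing the data) and -0.0513 to 0.0827 without each mouse, and Ctsd was -0.0517 to 0.0183 without each mouse; the cause was not tested. Called lists moved with single mice: without each in turn, 1 to 6 skeletal muscle genes, 2 to 6 adipocyte genes and 1 to 2 other cathepsins were called, and Timp1 kept an adjusted p under 0.05 in 6 of 12 limma fits. Signal over background could be judged only against the array medians, which limits Cst6, Kng1 and most of both wider families.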
